A study of Mus musculus with 9 samples.

Results

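Interferon-gamma inducible GTPases are proteins that cells make when interferon-gamma reaches them, and 8 of them were followed here: the guanylate-binding proteins Gbp2, Gbp2b and Gbp3 and the immunity-related GTPases Igtp, Irgm1, Irgm2, Iigp1 and Tgtp1. They were chosen by name, and every probe set of the array that the platform annotation assigns to one of these symbols alone was taken. That gave 9 probe sets for 7 of the 8 genes, among 12393 genes and 22626 probe sets tested in all. Gbp2 and Iigp1 had a pair of probe sets each. Tgtp1 had no probe set of its own: the one that detects it is annotated to Tgtp1 and its near-identical neighbour Tgtp2 together, so its values are given for the pair and are not counted among the 9.

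The RNA came from CD4+CD25+ regulatory T cells (Treg), the lymphocytes that restrain other immune cells, of mice of strain C57Bl/6. The 3 groups were fl-CBP/Foxp3cre mice, in which a loxP-flanked gene for the coactivator CBP is deleted, fl-p300/Foxp3cre mice, the same for its close relative p300, and Foxp3cre control mice, which the sample titles call WT; each group had 3 independent samples and 3 arrays. By the genotype labels all groups, controls included, carried Foxp3cre, a Cre recombinase driven from Foxp3. Deletion was thus directed to cells that had switched on Foxp3 and, by the design, not to other cells of the preparation. No value here measures in how many cells it took place. The cells were separated magnetically, and the ages of the mice and the purity of the cells are not given in the sources used here. CBP and p300 are histone acetyltransferases that many transcription factors recruit to promoters and enhancers.

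Interferon-gamma binds the receptor chains IFNGR1 and IFNGR2, the kinases JAK1 and JAK2 are activated, and the signal reaches the nucleus at a palindromic DNA element called GAS. Interferon regulatory factors such as IRF1 bind a second element called ISRE, and promoters of many interferon-inducible GTPase genes hold one or both. The proteins act inside the infected cell: effector GTPases gather on the vacuole around an intracellular parasite or bacterium and break it open, while the regulatory IRG proteins Irgm1, Irgm2 and Igtp (also called Irgm3) sit on the cell's own membranes and hold the effectors Iigp1 (Irga6) and Tgtp (Irgb6) in the inactive state. In T cells interferon-gamma is best known as the product of Th1 cells, and T cells respond to it as well as make it.

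The members' promoter windows are described here by their GAS and ISRE matches. RefSeq promoter windows of the mouse build GRCm38.p6 were available for 7 of the 8 members, Iigp1 being the one without, and the 250 bases upstream of each transcription start were searched on both strands for GAS, spelled TTCNNNGAA, and for ISRE, spelled GAAA, any 2 bases and GAAA again, or TTTC, any 2 bases and TTTC on the opposite strand. Matches of the 2 elements were counted separately, and overlapping matches were kept. The 5 stretches below, 120 bases each and written 5′ to 3′ along the gene, were chosen because they belong to Gbp2b and its neighbour Gbp2, which behaved differently, and to the 3 members that hold both elements; capitals mark GAS and ISRE matches. They lie at chr3:142594696-142594815 on the plus strand (Gbp2b), chr3:142620543-142620662 on the plus strand (Gbp2), chr11:48992247-48992366 on the minus strand (Tgtp1), chr11:58199436-58199555 on the plus strand (Igtp) and chr11:58214857-58214976 on the plus strand (Irgm2).
Gbp2b: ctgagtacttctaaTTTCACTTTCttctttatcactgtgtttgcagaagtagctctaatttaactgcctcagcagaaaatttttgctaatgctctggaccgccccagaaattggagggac
Gbp2: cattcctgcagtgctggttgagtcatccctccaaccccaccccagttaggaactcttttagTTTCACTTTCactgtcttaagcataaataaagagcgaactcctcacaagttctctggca
Tgtp1: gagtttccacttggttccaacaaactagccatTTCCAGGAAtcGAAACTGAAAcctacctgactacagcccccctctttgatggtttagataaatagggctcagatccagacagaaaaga
Igtp: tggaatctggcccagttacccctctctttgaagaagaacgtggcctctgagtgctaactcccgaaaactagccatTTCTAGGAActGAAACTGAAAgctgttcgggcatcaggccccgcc
Irgm2: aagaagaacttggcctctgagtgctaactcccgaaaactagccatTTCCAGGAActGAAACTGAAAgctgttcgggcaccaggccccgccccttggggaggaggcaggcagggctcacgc

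All 7 members with a window held at least 1 ISRE match, against 2.98% of the 32851 windows of all genes; Gbp3 has a second window with 0. Counted back from the window's transcription start, the ISRE match ended 128 bases away in Gbp2b, 50 in Gbp2, 68 in Tgtp1, 25 in Igtp and 55 in Irgm2. The printed Gbp2b stretch runs from 151 to 32 bases before that start, because the RefSeq gene begins upstream of it. Its match is therefore nearer to the RefSeq gene start than 128 bases. The other printed stretches run from 120 bases to 1 base before the start. Gbp3 and Irgm1, whose stretches are not shown, held 2 overlapping ISRE matches each. A GAS match stood in 3 of the 7, against 7.02% of all windows. In Tgtp1, Igtp and Irgm2 the GAS match was followed after 2 bases by the ISRE match, and only 7 of the 32851 windows (0.0213%) held both with at most 5 bases between them. The other 4 of those windows belong to Tgtp2, Gm12185, Gm32670 and Bst2. The 250-base windows of Igtp and Irgm2 share a run of 55 bases, which holds no ISRE match. A further stretch that both share holds the whole ISRE match, and their GAS matches are TTCTAGGAA and TTCCAGGAA. Tgtp1 and Irgm2 share a run of 20 bases, which holds the GAS match. The close pairs of these 3 genes thus lie in partly shared sequence and cannot be counted as separate occurrences. Gbp2b and Gbp2 share no run longer than 10 bases, and that run is the ISRE match itself. The matches describe letters in a window and do not show that a factor binds there.

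Of the guanylate-binding proteins, large GTPases that assemble on vacuoles and bacteria, Gbp2b (long called Gbp1) fell in both knockouts. On the control arrays its log2 values were 6.18, 6.45 and 5.72, on the CBP-deleted arrays 4.71, 4.77 and 4.57, and on the p300-deleted arrays 5.27, 4.92 and 5.48. No array of a knockout reached the lowest control array, and the CBP-deleted arrays all lay below the p300-deleted ones. In control cells the signal stood between the 51.5 and 59.4 percentile of the array's probe sets, and in CBP-deleted cells between the 40.9 and 42.7 percentile.

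Relative to control, Gbp2b was lower by 2.70-fold in CBP-deleted cells (log2 change -1.43, SE 0.19, 95% interval -1.86 to -1.01, limma adjusted p = 0.00625). In p300-deleted cells it was lower by 1.86-fold (log2 change -0.89, SE 0.19, 95% interval -1.32 to -0.47, limma adjusted p = 0.0382). The p300 call was lost when any 1 CBP-deleted array, p300-deleted replicate 1 or 2, or control replicate 1 or 2 was left out, with adjusted p up to 0.164, and when only these 2 groups were fitted (0.104). Between the knockouts the difference of -0.54 did not pass (95% interval -0.97 to -0.11, limma adjusted p = 0.178). Every p-value here is two-sided and adjusted by the Benjamini-Hochberg method over all 22626 probe sets, and a call is an adjusted p under 0.05. In RNA from a mixed preparation, fewer cells of a type and less RNA per cell cannot be told apart.

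**Figure D1:**
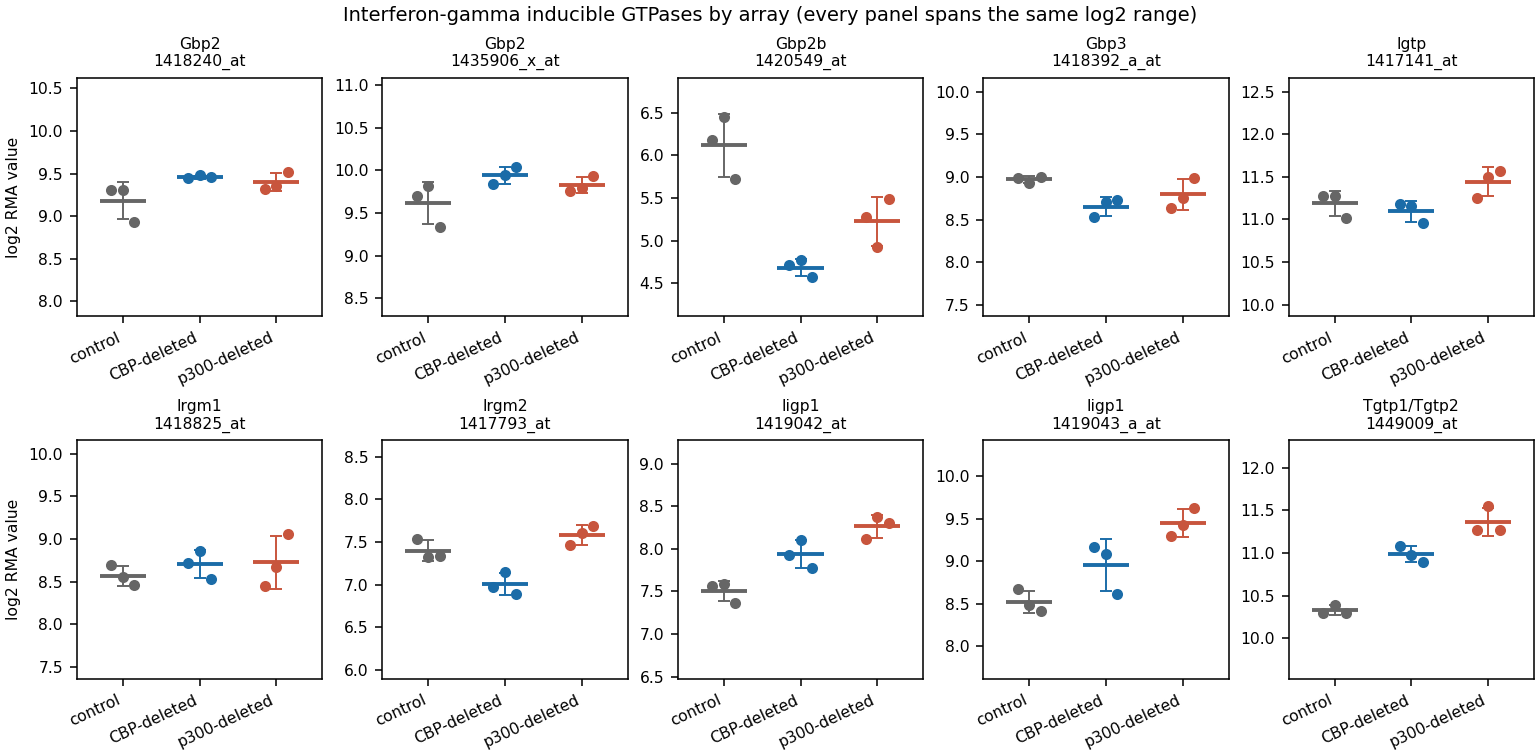
Log2 RMA value (vertical axis) of each member probe set and of the probe set shared by Tgtp1 and Tgtp2 on each of the 9 arrays, by group, with each point 1 array, the long bar the group mean and the whiskers 1 SD (n = 3). Gbp2b falls from 5.72 to 6.45 in control to 4.57 to 4.77 in CBP-deleted cells, while the shared Tgtp probe set climbs from 10.29 to 10.39 in control to 11.27 to 11.55 in p300-deleted cells.

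Gbp2, which lies beside Gbp2b, had positive changes and no call. Its first probe set, with the plain suffix _at, read 9.31, 9.31 and 8.93 in control, 9.44, 9.48 and 9.46 in the CBP-deleted samples and 9.32, 9.36 and 9.52 in the p300-deleted samples. Both knockouts lay above control, with control replicate 3 the low array and the margin over the other control arrays small. The log2 changes of 0.28 in CBP-deleted (SE 0.11, 95% interval 0.04 to 0.52, limma adjusted p = 0.197) and 0.22 in p300-deleted cells (SE 0.11, 95% interval -0.02 to 0.46, limma adjusted p = 0.336) did not pass. The second, whose suffix _x_at marks possible cross-hybridisation, gave 0.33 and 0.21 with adjusted p of 0.159 and 0.390, and the knockouts overlapped each other on both.

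Gbp3, the third guanylate-binding protein, read 8.99, 8.93 and 9.01 in control, 8.53, 8.71 and 8.73 in the CBP-deleted samples and 8.64, 8.76 and 8.99 in the p300-deleted samples. The CBP-deleted arrays all lay below control, and 1 p300-deleted array lay within it. The log2 change of -0.32 in CBP-deleted cells (SE 0.10, 95% interval -0.55 to -0.09) had a limma adjusted p of 0.124, and that of -0.18 in p300-deleted cells one of 0.427. Neither passed.

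The 3 regulatory IRG proteins showed no call against control in either knockout. Irgm2, which guards the Golgi apparatus, read 7.54, 7.32 and 7.34 in control, 6.97, 7.15 and 6.90 in the CBP-deleted samples and 7.46, 7.60 and 7.69 in the p300-deleted samples. Every CBP-deleted array lay below every other array, and the p300-deleted arrays overlapped control. Relative to p300-deleted cells Irgm2 was lower by 1.49-fold in CBP-deleted cells (log2 difference -0.58, SE 0.11, 95% interval -0.83 to -0.33, limma adjusted p = 0.0203).

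The separate changes of Irgm2 against control were -0.39 in CBP-deleted cells (95% interval -0.64 to -0.14, limma adjusted p = 0.0926) and 0.19 in p300-deleted cells (95% interval -0.06 to 0.44, limma adjusted p = 0.444), so the difference between the knockouts passed where neither change against control did. The call between the knockouts was lost without any 1 CBP-deleted array and without p300-deleted replicate 2 or 3, with adjusted p from 0.0580 to 0.0940, while the log2 difference stayed between -0.65 and -0.52.

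Igtp, the gene next to Irgm2 and its partner in the shared run of promoter bases, read 11.28, 11.27 and 11.02 in control, 11.18, 11.16 and 10.96 in the CBP-deleted samples and 11.25, 11.50 and 11.57 in the p300-deleted samples. The p300-deleted arrays lay above all CBP-deleted ones, and control overlapped both. The log2 difference between the knockouts was -0.34 (SE 0.11, 95% interval -0.57 to -0.11) and missed the threshold at a limma adjusted p of 0.111. Against control the changes were -0.09 after CBP deletion (adjusted p = 0.684) and 0.25 after p300 deletion (adjusted p = 0.244).

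Irgm1, the family member tied to mitochondria, lysosomes and autophagy, read 8.69, 8.55 and 8.46 in control, 8.71, 8.86 and 8.54 in the CBP-deleted samples and 8.45, 8.67 and 9.06 in the p300-deleted samples. The 3 groups overlapped throughout. Its log2 changes against control were 0.14 in CBP-deleted (95% interval -0.19 to 0.46, limma adjusted p = 0.669) and 0.16 in p300-deleted cells (95% interval -0.16 to 0.49, limma adjusted p = 0.639). The p300 value became -0.01 without p300-deleted replicate 3, the highest array.

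The effector GTPases went the other way from Gbp2b. Iigp1, which loads onto the membrane of the Toxoplasma vacuole, rose in p300-deleted cells on both of its probe sets, and the pair reads 1 target accession, so they are not separate measurements of the gene. The first, with the suffix _at, read 7.56, 7.59 and 7.37 in control, 7.93, 8.10 and 7.77 in the CBP-deleted samples and 8.12, 8.38 and 8.30 in the p300-deleted samples. No groups overlapped, and the order was control, CBP-deleted, p300-deleted. The second, with the suffix _a_at, read 8.67, 8.48 and 8.41 in control, 9.17, 9.09 and 8.61 in the CBP-deleted samples and 9.30, 9.42 and 9.63 in the p300-deleted samples, with the same order of means and with CBP-deleted replicate 3 inside the control range.

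In p300-deleted cells Iigp1 was higher by 1.70-fold on the first probe set (log2 change 0.76, SE 0.12, 95% interval 0.50 to 1.02, limma adjusted p = 0.0121). The second gave 1.90-fold (log2 change 0.93, SE 0.15, 95% interval 0.61 to 1.25, limma adjusted p = 0.0123). Both calls were lost without p300-deleted replicate 2, at adjusted p of 0.0701 and 0.0645 and log2 changes of 0.71 and 0.94.

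In CBP-deleted cells the log2 changes of Iigp1 were 0.43 (SE 0.12, 95% interval 0.18 to 0.69, limma adjusted p = 0.0763) and 0.43 (SE 0.15, 95% interval 0.11 to 0.76, limma adjusted p = 0.133), which did not pass. The knockouts differed by -0.33 and -0.49, and neither difference passed (limma adjusted p = 0.175 and 0.101).

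The probe set shared by Tgtp1 and Tgtp2, GTPases that gather on the Toxoplasma vacuole with Iigp1, rose in both knockouts. It read 10.29, 10.39 and 10.30 in control, 11.08, 10.98 and 10.90 in the CBP-deleted samples and 11.27, 11.55 and 11.27 in the p300-deleted samples. The 3 groups were apart from each other, again with control lowest and p300-deleted highest. The SD within a group was at most 0.16.

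The shared Tgtp signal was higher by 1.58-fold in CBP-deleted cells (log2 change 0.66, SE 0.09, 95% interval 0.46 to 0.85, limma adjusted p = 0.00625) and by 2.05-fold in p300-deleted cells (log2 change 1.03, SE 0.09, 95% interval 0.84 to 1.23, limma adjusted p = 0.000484). Both calls held without each array in turn. CBP-deleted cells were 1.30-fold below p300-deleted cells (log2 difference -0.38, SE 0.09, 95% interval -0.57 to -0.18, limma adjusted p = 0.0450). That last call was lost without any 1 knockout array and without control replicate 1, with adjusted p up to 0.186 and log2 differences from -0.43 to -0.28. Which of Tgtp1 and Tgtp2 carried the signal cannot be read from a probe set that detects both.

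**Figure D2:**
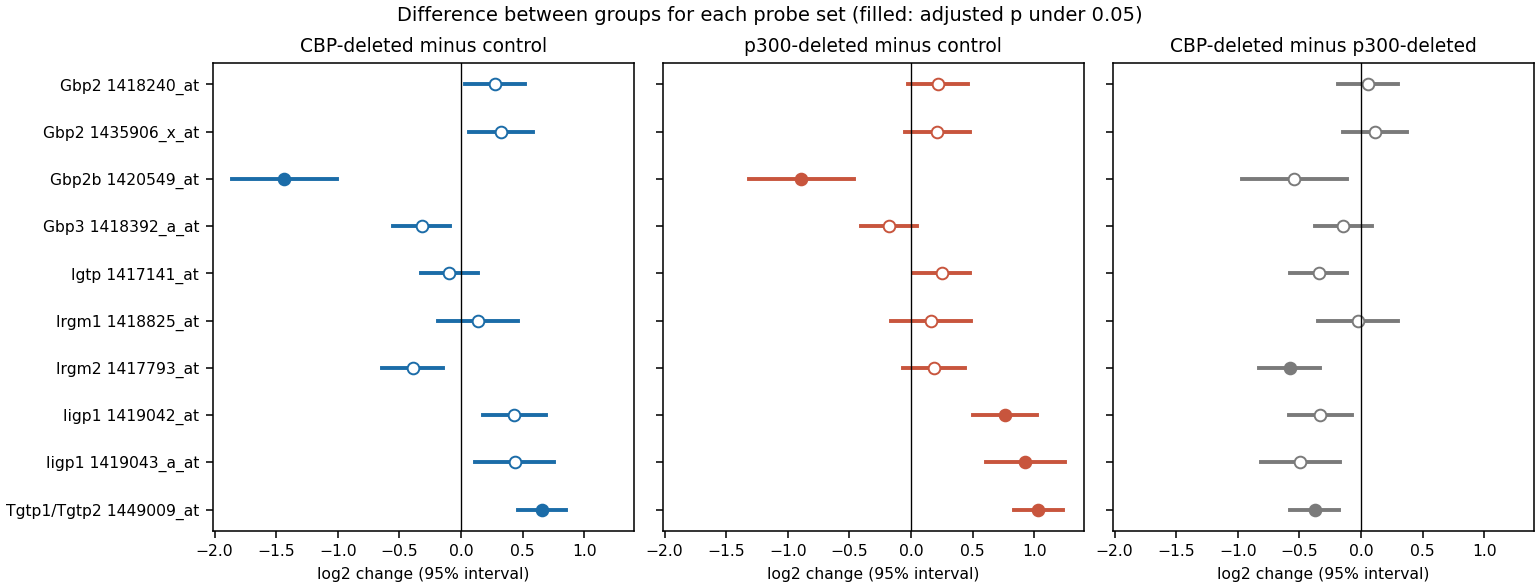
Log2 difference (horizontal axis) with its 95% interval for each member probe set and the shared Tgtp probe set in the 3 comparisons, filled where the limma adjusted p is under 0.05. Gbp2b is the lowest against control in both knockouts (-1.43 and -0.89), and the shared Tgtp probe set (0.66 and 1.03) is the highest.

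Counted over the 9 member probe sets, CBP deletion gave 0 higher calls and 1 lower call, Gbp2b, against a background of 2.50% of all probe sets called, 1.26% higher and 1.25% lower. An unadjusted p under 0.05 was reached by 7 of the 9, against 18.9% of all probe sets. Arrays did not overlap control for 3 probe sets upward (background 10.3%) and 3 downward (background 12.6%), and the median log2 change of the members was 0.14 against -0.02 for all probe sets. The members thus did not move one way in CBP-deleted cells, 5 having a positive and the others a negative sign.

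In p300-deleted cells 2 of the 9 were called higher, both of Iigp1, and 1 lower, Gbp2b, against a background of 2.62% called, 1.45% higher and 1.17% lower. An unadjusted p under 0.05 was reached by 4 of the 9, against 17.3% of all probe sets. Arrays did not overlap for 3 upward (background 9.26%) and 1 downward (background 10.5%). The median was 0.21 against -0.01 for all probe sets, and 7 of the 9 had a positive sign. Both comparisons use the same 3 control arrays, so their values are given side by side and not as independent of each other.

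Between the knockouts 1 of the 9 was called lower in CBP-deleted cells, Irgm2, and 0 higher, against a background of 3.35% called, 1.25% lower and 2.10% higher. An unadjusted p under 0.05 was reached by 5 of the 9, against 16.2% of all probe sets. CBP-deleted arrays lay wholly below p300-deleted arrays for 5 probe sets (background 12.9%) and above them for 0 (background 14.6%). The 5 were those of Gbp2b, Igtp, Irgm2 and Iigp1 on both probe sets. The median difference was -0.33 against -0.02 for all probe sets.

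Neighbouring genes did not share calls. On chromosome 3 the genes follow in the order Gbp5, Gbp7, Gbp3, Gbp2b and Gbp2, and Gbp2b was the only one called among those measured. Gbp7 changed by 0.05 and -0.02 on its 2 probe sets after CBP deletion and by 0.14 and 0.17 after p300 deletion. The gene beyond Gbp2, Kyat3, gave 0.39 and -0.08, also with no call.

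On chromosome 11 the shared Tgtp probe set was the only one called between Irgm1 and Ifi47 among the genes measured. Gm5431, 9930111J21Rik1 and 9930111J21Rik2 of that stretch had no probe set. Ifi47, the IRG gene next to Tgtp2, changed by -0.07 in the CBP-deleted samples and 0.16 in the p300-deleted samples, neither passing the test. Gm12185, whose promoter window also holds the close GAS and ISRE pair, changed by -0.02 and 0.04. Its control mean of 4.63 lay below the array medians. The close pair was thus found in the windows of Tgtp1 and Tgtp2, whose shared signal rose, and of Irgm2, called only between the knockouts. It also stood in those of Igtp, Gm12185 and Bst2, which had no call, and of Gm32670, which was not followed here.

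**Figure D3:**
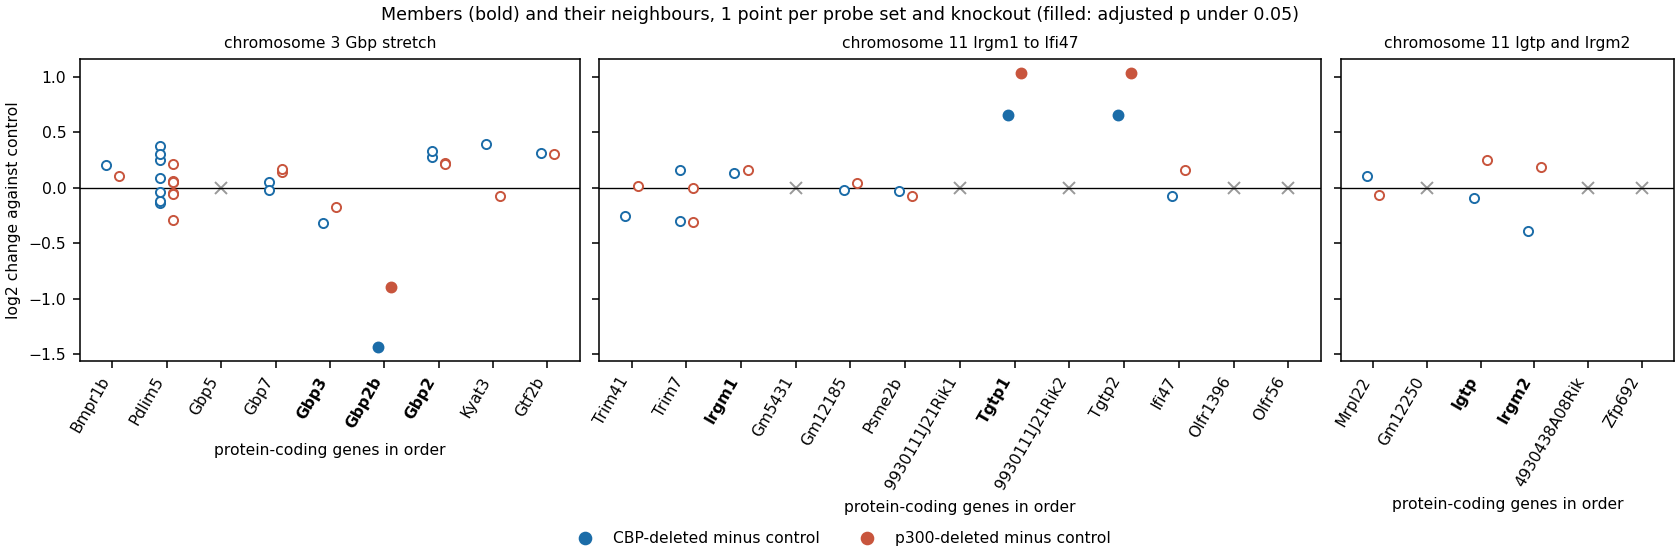
Log2 change against control (vertical axis) for the protein-coding genes around the members in chromosome order, 1 point per probe set and knockout, members in bold, filled where the limma adjusted p is under 0.05 and a grey cross where no probe set was used. Tgtp1 and Tgtp2 show the same shared probe set (0.66 and 1.03), and Gbp2b (-1.43 and -0.89) is the only filled gene of the chromosome 3 stretch.

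Upstream of the members, the receptor and signalling list had 11 of its 12 genes measured by 22 probe sets. Of these 0 were called against control in either knockout. In each, 6 had an unadjusted p under 0.05, against 18.9% of all probe sets after CBP deletion and 17.3% after p300 deletion. Ifng itself changed by -0.53 in CBP-deleted (SE 0.29, limma adjusted p = 0.355) and -0.21 in p300-deleted cells (limma adjusted p = 0.767), with overlapping arrays. The largest change short of the threshold was that of Jak1, -1.06 in CBP-deleted cells on 1 of its 3 probe sets (SE 0.38, limma adjusted p = 0.154), while the others gave -0.15 and -0.47. Irf1, the factor that binds ISRE, stood at -0.42 in CBP-deleted cells (limma adjusted p = 0.0876), and Socs1, an inhibitor of JAK kinases, at 0.50 in p300-deleted cells (limma adjusted p = 0.0986).

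Between the knockouts 2 of the 22 signalling probe sets passed (background 3.35%), in opposite directions. Ifngr1, the ligand-binding chain of the receptor, was higher in CBP-deleted than in p300-deleted cells by 0.59 (SE 0.12, limma adjusted p = 0.0246). Socs3, a feedback inhibitor of cytokine signalling, was lower by 0.58 on 1 of its 3 probe sets (log2 difference -0.58, SE 0.13, limma adjusted p = 0.0359); the other probe sets gave -0.55 and -0.45 with no call.

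Among other interferon-inducible GTPases, 6 of 14 genes were measured by 7 probe sets. Gbp6, a further guanylate-binding protein, read 8.57, 8.07 and 8.27 in control, 8.47, 8.52 and 8.45 in the CBP-deleted samples and 8.91, 9.01 and 8.95 in the p300-deleted samples. The p300-deleted arrays stood above all others and the other groups overlapped, giving a rise of 0.66 in p300-deleted cells (SE 0.12, limma adjusted p = 0.0188) and 0.18 with no call in CBP-deleted cells (limma adjusted p = 0.447). Gbp8 was lower in CBP-deleted than in p300-deleted cells (log2 difference -0.59, SE 0.12, limma adjusted p = 0.0264). No other probe set of the list was called in any comparison, Ifi47, Mx1, Mx2 and Gbp7 included, and the list medians were 0.05, 0.17 and -0.19.

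Other targets of interferon-gamma, among them antigen-processing genes and chemokines, were measured for 20 of 24 genes by 30 probe sets. Icam1, an adhesion molecule, fell in CBP-deleted cells (log2 change -0.63, SE 0.14, limma adjusted p = 0.0367), and 0 were called in p300-deleted cells or between the knockouts. An unadjusted p under 0.05 was reached by 4 in p300-deleted cells (background 17.3%) and by 3 between the knockouts (background 16.2%). The medians of -0.02, 0.02 and -0.05 lay near those of all probe sets.

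Genes of the type I interferon response, many of which also answer to interferon-gamma, leaned upward in both knockouts. Of 30 probe sets for 21 of 24 genes, 26 had a positive sign in CBP-deleted cells (median 0.30). In p300-deleted cells 25 did (median 0.28). An unadjusted p under 0.05 was reached by 18 of the 30 after CBP deletion, against 18.9% of all probe sets. After p300 deletion 13 reached it, against 17.3%. After CBP deletion 2 were called higher and 1 lower (background 1.26% and 1.25%). After p300 deletion 2 were called higher and 0 lower (background 1.45% and 1.17%). In CBP-deleted cells Oasl2 rose by 1.27 (limma adjusted p = 0.0317) and Zbp1, a sensor of nucleic acids, by 0.69 (limma adjusted p = 0.0231), while 1 probe set of Ifnar2, a receptor chain, fell by 0.51 (limma adjusted p = 0.0312). The other probe set of Ifnar2 gave 0.29 with no call (limma adjusted p = 0.176), and the call passed in 10 of 18 alternatives, with values from -0.61 to -0.11.

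In p300-deleted cells Ifit3 rose by 0.90 (limma adjusted p = 0.0421) and Zbp1 by 0.68 (limma adjusted p = 0.0229). A second probe set of Zbp1 gave 0.51 and 0.24 with no call. Between the knockouts 0 of the 30 were called, with a median of 0.03. An unadjusted p under 0.05 was reached by 3, against 16.2% of all probe sets.

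The Th1 program, whose cells make interferon-gamma, had 12 of 13 genes measured by 13 probe sets. In CBP-deleted cells Tbx21, the factor that defines Th1 cells, fell by 1.14 (SE 0.24, limma adjusted p = 0.0353) and Il12rb1, a receptor chain for IL-12, by 0.70 (SE 0.15, limma adjusted p = 0.0409). In p300-deleted cells 12 of the 13 had a negative sign, with a median of -0.33 and 0 calls (6 had an unadjusted p under 0.05, background 17.3%). Tbx21 changed there by -0.68 (limma adjusted p = 0.160).

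Autophagy proteins of the ATG8 conjugation system place the GTPases on their target membranes, and all 12 genes of that list were measured, by 27 probe sets. Gabarapl1, an ATG8 family protein, rose on 1 of its 2 probe sets by 1.09 in CBP-deleted (SE 0.19, limma adjusted p = 0.0203) and 0.97 in p300-deleted cells (SE 0.19, limma adjusted p = 0.0274). The other gave 0.51 and 0.54 with no call. One probe set of Becn1, a subunit of the kinase complex that starts autophagosomes, fell by 0.31 in p300-deleted cells (limma adjusted p = 0.0470). That call passed in only 4 of 18 alternatives, with values from -0.34 to -0.096, and the other 3 probe sets of Becn1 gave -0.04, -0.13 and 0.10 with no call. The list medians of 0.00 and 0.02 lay near 0. Of the 15 calls in the signalling, GTPase, target, type I, Th1 and autophagy lists together, each was lost without at least 1 array.

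**Figure D4:**
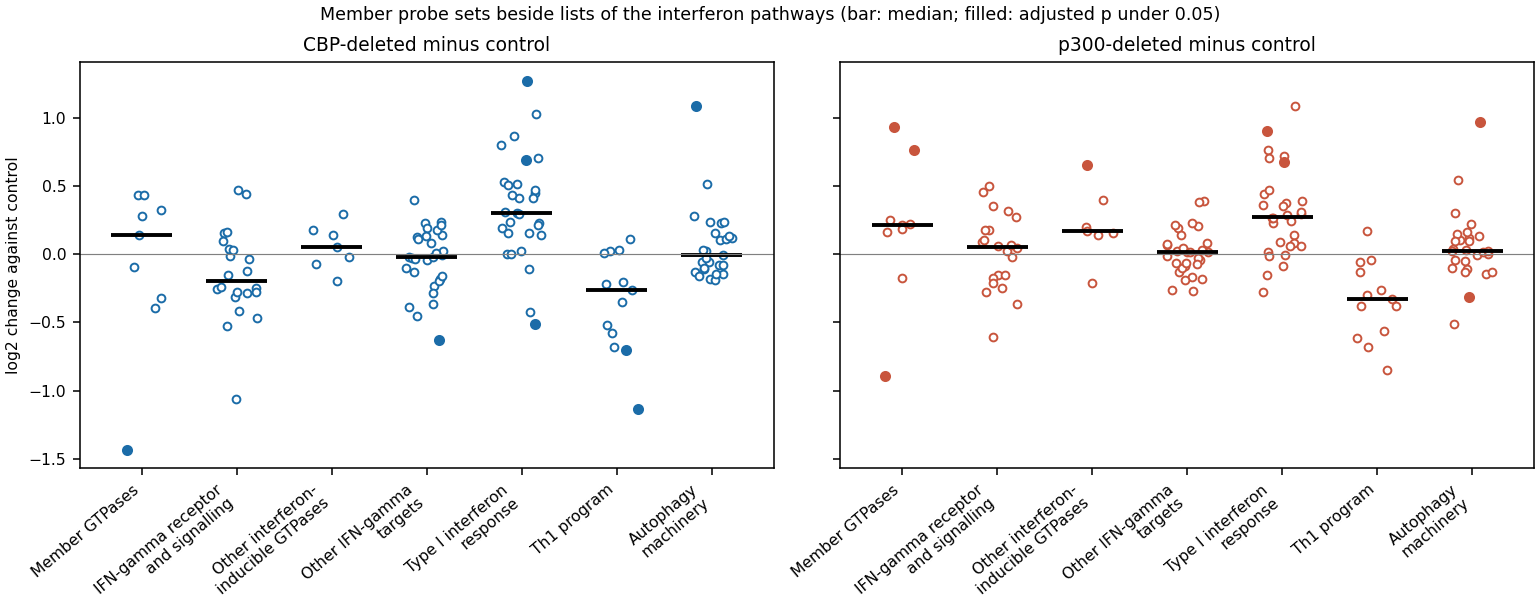
Log2 change against control (vertical axis) of the member probe sets and of those in 6 interferon-related gene lists, 1 panel per knockout. Each point is 1 probe set, filled where the limma adjusted p is under 0.05, with the bar at the median. The type I interferon list lies highest against control (medians 0.30 and 0.28) and the Th1 list lowest (medians -0.27 and -0.33).

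Several facts of the whole series bear on these values. Array medians lay between 5.49 and 5.59. The probe set of Crebbp, the gene of CBP, read 7.11 to 7.35 in CBP-deleted, 7.36 to 7.67 in control and 7.48 to 7.67 in p300-deleted cells; the change of -0.33 in CBP-deleted cells did not pass (limma adjusted p = 0.152), and how the probes lie to the deleted part is not given in the sources used here. The gene of p300, Ep300, had no probe set annotated to it alone, so its RNA was not read here. Foxp3, which defines Treg cells, was read by 1 probe set, at 9.48 to 9.75 in control and 2.58 to 3.19 in both knockouts. The knockout values lay below every reading of Xist (3.44 to 3.80), taken as a low-level reference, and thus near the array's floor. How its probes lie to the Foxp3cre allele is not given in the sources used here, so whether Foxp3 RNA was lost cannot be read from it. The labels give Foxp3cre to all groups, and whether the control mice carried the same Foxp3 allele was not tested. A difference in that allele could not be told apart from either deletion in the comparisons against control. Il2ra, which encodes CD25, had no call in any comparison. The T cell and Treg identity list, with Foxp3 and Il2ra in it, had 8 of 8 genes measured by 10 probe sets. Of these 7 had a positive sign in CBP-deleted cells, with 1 called higher and 1 lower (background 1.26% and 1.25%). In p300-deleted cells 8 were positive, with 2 called higher and 1 lower (background 1.45% and 1.17%). The list's linear signal summed to 11781 to 13321 in control, 12106 to 12502 in CBP-deleted and 13192 to 13916 in p300-deleted cells.

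Markers of other blood cells moved beside the members in part. Summed over 10 of 11 macrophage and monocyte genes, the linear signal ran from 249 to 479 in control, 287 to 851 in CBP-deleted and 427 to 1303 in p300-deleted cells, with 0 of 14 probe sets called in any comparison. An unadjusted p under 0.05 was reached by 1 of the 14 after CBP deletion (background 18.9%), by 7 after p300 deletion (17.3%) and by 1 between the knockouts (16.2%). The group means of this sum were 345, 520 and 738, the same order as those of Iigp1 and of the shared Tgtp probe set. Neutrophil markers, 9 of 9 genes, summed to 207 to 403, 541 to 4176 and 566 to 2661 in the same order of groups. In p300-deleted cells all 9 of their probe sets had a positive sign, with a median of 1.51, and 6 had an unadjusted p under 0.05 (background 17.3%). Camp, an antimicrobial granule peptide, was called there (2.13, limma adjusted p = 0.0488). In CBP-deleted cells 8 of the 9 were positive, with a median of 0.97 and 0 calls (3 had an unadjusted p under 0.05, background 18.9%). The array highest in macrophage markers, p300-deleted replicate 1, had the lowest Iigp1 value of its group, and without it Iigp1 changed by 0.84 and 1.00 (limma adjusted p = 0.0238 and 0.0310) and the shared Tgtp probe set by 1.08 (limma adjusted p = 0.00399). The part of macrophages and neutrophils in the members' values was not tested.

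B cell markers, 8 of 9 genes, summed to 13658 to 14571 in control, 11305 to 12542 in CBP-deleted and 16863 to 18029 in p300-deleted cells, an order of the groups that Irgm2 and Igtp share. Ighm, the immunoglobulin heavy chain gene, set most of that sum, and the rest of the list did not have this order. In CBP-deleted cells 4 of 20 probe sets were called lower and 1 higher (background 1.25% and 1.26%). The lower ones were those of Cd79a and Cd79b, parts of the B cell receptor (-1.03 and -0.84, limma adjusted p = 0.0436 and 0.0367), and a pair of Ighm (-0.40 and -0.25, limma adjusted p = 0.0380 and 0.0431). Another of Ighm was called higher (2.83-fold, limma adjusted p = 0.0372). In p300-deleted cells 9 were called higher (background 1.45%) and 0 lower (background 1.17%). All 9 were of Ighm, so they are not separate genes, and the brightest changed by 0.33 (limma adjusted p = 0.0164). Cd79a and Cd79b changed there by -0.22 and -0.26 and Ms4a1, a B cell surface protein, by -0.42 on its brighter probe set, none with a call. The part of these cells in the members' values was not tested.

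CD8 T and NK cell markers, 9 of 10 genes, summed to 2211 to 2360 in control, 1488 to 2214 in CBP-deleted and 2112 to 2661 in p300-deleted cells. Although the sum was lower in CBP-deleted cells, the 2 calls there among the 11 probe sets were higher (background 1.26%). They were Gzmk, a granule protease, by 1.02 (limma adjusted p = 0.0167) and Cd8b1, a chain of CD8, by 0.74 (limma adjusted p = 0.0155). In p300-deleted cells 0 of the 11 probe sets were called (6 had an unadjusted p under 0.05, background 17.3%). The mean signal of the 18S ribosomal control probe sets was 5.82 and 6.20 on control replicates 1 and 2, 8.88 on control replicate 3 and 7.39 to 9.62 in the knockouts. Control replicate 3 also gave the lowest control values of Gbp2, Gbp2b, Igtp, Irgm1 and Iigp1. Whether the 18S signal has a part in any member's value was not tested.

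Genes whose pattern over the 9 arrays was most like the mean centred profile of the 7 members are given as a description. By Pearson correlation over 12123 genes they were Mfhas1 (r = 0.945), Cwh43 (0.944), Cish (0.938), Tmem260 (0.925), Sec62 (0.921) and Git2 (0.920). Cwh43 and Tmem260 had group means of at most 2.64 and 3.82, close to or below the Xist readings. The profile followed Igtp (r = 0.894) and Irgm2 (0.878) far more than Gbp2 (0.0399), and Iigp1 (0.455) and Gbp2b (0.551) lay between. Each member is itself part of the profile, which raises its r. Even so, the members did not share 1 pattern.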

How the data were processed

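Total RNA from 9 samples was amplified from 100 ng, labelled with biotin and read on 1-colour Affymetrix 3' arrays, per the labels' protocols. The deposited values are log2 expression per probe set, made by the authors with RMA per the submitters' processing notes; RMA settings are not given in the sources used here. Values were used as deposited. The table holds 22690 probe sets, of which 64 controls were set aside; 20380 carry 1 gene symbol, 691 several and 1555 none, and none was named from several symbols except the shared Tgtp probe set. RMA draws low values together, so changes of dim probe sets are understated. Arrays give no depth; their number limits the precision.

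Groups came from the genotype labels. limma 3.58.1 in R 4.3.3 took all 9 arrays into 1 fit with a mean for each genotype and no covariate, leaving 6 residual degrees of freedom, and moderated the variances with a trend on expression. Changes are log2 differences. The fit was tested on simulated data. Same-numbered arrays of different groups did not deviate together (1 of 9 correlations above 0.1, from -0.22 to 0.26), so no block was used. The labels call the samples independent and name no animals, so p-values measure the spread between these samples.

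The members and lists were chosen with earlier results of these data known; the neighbour and promoter descriptions were added after values were seen. By the naming rule, all member probe sets are given, up to 4 called genes per list or else up to 2 with the largest changes, and the 6 genes most like the members; other genes named were chosen after their values were seen. Symbols came from the platform annotation, checked by gene ID against RefSeq GRCm38.p6, with 29 probe sets unmatched. Alternatives were a replicate block, median centring, quantile normalization, leaving out dim probe sets, probe set choices, no trend, array weights, fitting only the groups compared, and leaving out each array.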

Additional observations from a re-analysis of the deposited data

Results flagged for a closer look

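The 2 knockouts differed from each other, by the test of that difference, for Irgm2 and for the probe set shared by Tgtp1 and Tgtp2. Irgm2 was lower in CBP-deleted than in p300-deleted cells (log2 difference -0.58, limma adjusted p = 0.0203), with all 3 CBP-deleted arrays below all 3 p300-deleted arrays. The shared Tgtp probe set was lower by -0.38 on the log2 scale (limma adjusted p = 0.0450), both knockouts lying above control. Groups of 3 arrays were not searched for single outlying arrays.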

How the results depend on the processing

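Of 504 values of the 9 member probe sets under the alternatives, 480 kept their direction and side of the threshold, 17 lost the call, 3 gained one and 4 changed sign. Of 51 of the shared Tgtp probe set, 41 kept both and 10 lost the call. Gbp2b in CBP-deleted cells passed in 19 of 19 alternatives, and the shared Tgtp probe set passed against control in 17 of 17 in each knockout. Gbp2b in p300-deleted cells passed in 10 of 19 and Irgm2 between the knockouts in 13 of 19. The shared Tgtp difference between the knockouts passed in 7 of 17, and was lost with median centring (adjusted p = 0.0829) and without the trend (0.0919). With the replicate block, for numbers that do not pair the arrays, Gbp2b in p300-deleted cells had an adjusted p of 0.0768, the Irgm2 difference 0.0502 and the shared Tgtp difference 0.0587; the count of members called between the knockouts went from 1 to 0.

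With array weights the member count rose from 1 to 3 in CBP-deleted cells and from 1 to 2 between the knockouts, adding Irgm2 (0.0277), Iigp1 (0.0256) and, between the knockouts, Igtp (0.0341). Leaving out 1 array gave 0 to 3 members called in p300-deleted cells, with 0 without p300-deleted replicate 2, and 0 to 1 between the knockouts. The sign changes were all of Irgm1: between the knockouts 0.025 with array weights and -0.16 to 0.14 when an array was left out, and in p300-deleted cells -0.0075 to 0.30.

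Counts over all probe sets moved more. From 566 in CBP-deleted, 592 in p300-deleted and 758 between the knockouts they went to 262, 278 and 545 with the block, 2302, 1388 and 2011 with array weights, and 193, 130 and 1733 with only the groups compared. The mean of a gene's probe sets gave 513, 356 and 548 genes. Leaving out 1 array gave 85 to 1624, 74 to 1377 and 134 to 1270, the highest of the first pair without control replicate 3. With 3 arrays per group, changes of the size of Gbp2 or Gbp3 in CBP-deleted cells had 95% intervals that left out 0 but missed the adjusted threshold.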
